A study of Homo sapiens with 9 samples.

Results

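The genes described here are 32 nuclear genes for the tricarboxylic acid (TCA) cycle, the entry of pyruvate into mitochondria, and the metabolism of glutamine and glutamate. They were taken by name from a table of 60612 genes, each name matched 1 entry, and all 32 passed the filter on low values that left 12830 genes for testing. The cells were VCaP, an established human prostate cancer line. Transfection lasted 4 days, with Control siRNA (genotype given as KMT2C normal), KMT2C siRNA#1 or KMT2C siRNA#2 (genotype of both given as KMT2C deficiency), and RNA sequencing gave 3 libraries per group. All groups share the line, its growth medium and the transfection. They are called control, siRNA 1 and siRNA 2 below. KMT2C encodes a methyltransferase of histone H3 lysine 4, and the comparison asks how transcript levels change when it is lowered.

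The TCA cycle oxidises the acetyl group of acetyl-CoA to carbon dioxide and passes the electrons to the respiratory chain. Pyruvate enters mitochondria through a carrier and is turned into acetyl-CoA by the pyruvate dehydrogenase complex, or into oxaloacetate by pyruvate carboxylase, which refills the cycle. Glutamine refills it too, by way of glutamate and 2-oxoglutarate. Prostate epithelium is known for making and secreting citrate, which in other tissues would be oxidised.

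Library totals ranged from 58462215 to 70726213 estimated counts. KMT2C was at 12.9 ± 0.806 FPKM in control libraries (fragments per kilobase of transcript, scaled to library size, mean ± SD, n = 3 as for all means below), and 14.5% of that level was left with siRNA 1 and 13.1% with siRNA 2. The luminal prostate and VCaP markers KLK3, HOXB13, KRT8 and ERG were above 1 FPKM in control cells. The summed level of 3 basal markers was 2.37 to 2.63 FPKM in control, 6.27 to 7.86 with siRNA 1 and 0.719 to 0.886 with siRNA 2, nearly all of it KRT14, with KRT5 at no more than 0.129 and TP63 at no more than 0.0157 in any library. Of 4 stromal markers the sum was 1.48 to 2.26, 0.684 to 0.874 and 7.12 to 12.4 FPKM, with LUM as the main part and COL1A1 at no more than 0.593. Markers of endothelium, leukocytes and retina (a tissue that the design text names) stayed below 1 FPKM. Mitochondrially encoded genes took 10.6% ± 0.501 of counts in control, 9.02% ± 0.698 with siRNA 1 and 12.05% ± 0.119 with siRNA 2. The part of these shifts in the results below was not tested. In bulk RNA, fewer cells of a type and less RNA per cell cannot be told apart.

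Most of the 32 genes were well expressed in control cells. Their median level was 18.1 FPKM against 4.87 over all tested genes, and 13 of the 32 lay in the highest 10% of tested genes. IDH2, the mitochondrial NADP-dependent isocitrate dehydrogenase, was highest at 267 ± 21.1 FPKM and ranked 94 among all tested genes. GLUD1, glutamate dehydrogenase, followed at 184 ± 6.37 and ranked 139, then MDH2, mitochondrial malate dehydrogenase, at 108 ± 2.58, and MPC2, a subunit of the mitochondrial pyruvate carrier, at 87.3 ± 3.51. The lower end held GLS2, a glutaminase, at 1.80 ± 0.0478 FPKM, D2HGDH, D-2-hydroxyglutarate dehydrogenase, at 1.99 ± 0.272, and SUCLA2, a subunit of ADP-forming succinyl-CoA ligase, at 2.82 ± 0.176. Many neighbours in the middle of this order, such as PC, IDH3B and PDHB at 17.7 ± 0.692, 17.6 ± 1.69 and 17.6 ± 0.992, were closer together than their spread. IDH2 and GLUD1 made up 36.5% ± 0.852 of the summed FPKM of the 32 genes in control libraries.

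**Figure D1:**
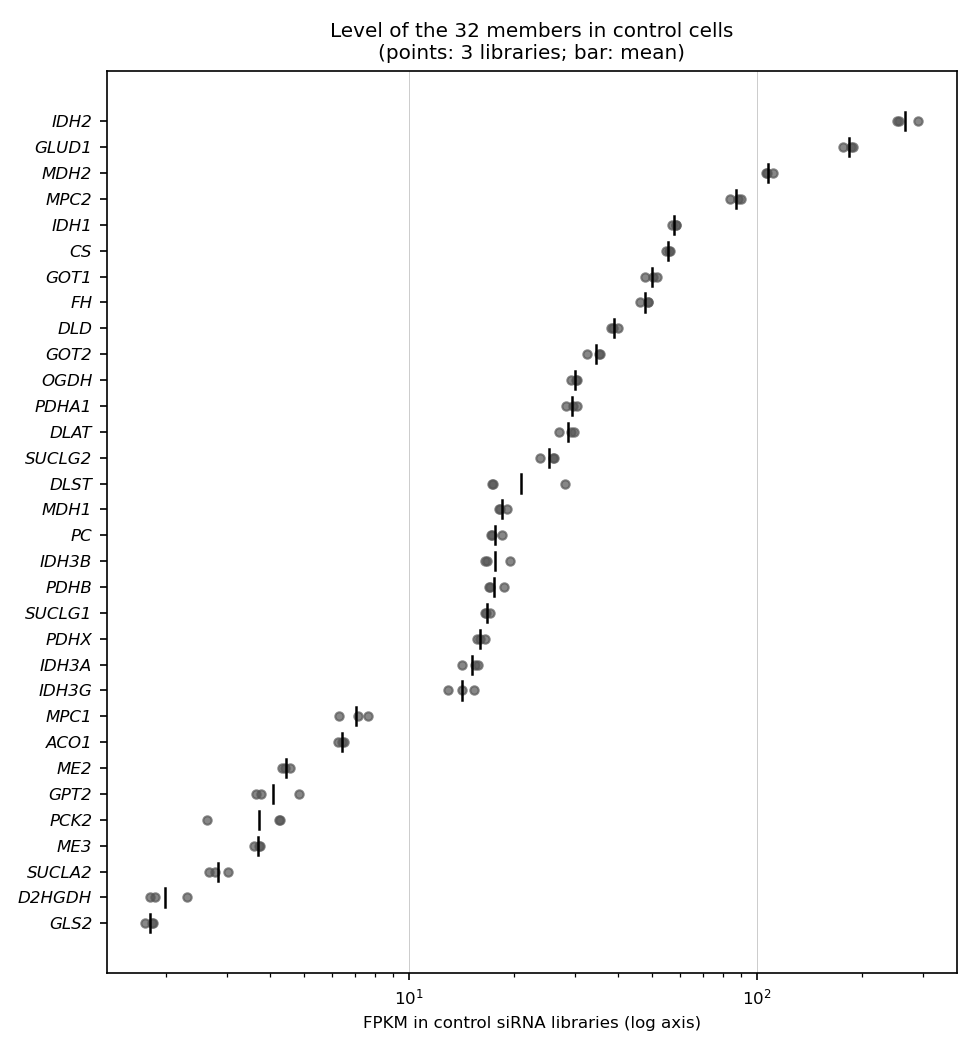
Level of each of the 32 genes in the 3 control libraries, in FPKM on a log axis, with the mean as a bar. IDH2 (267 FPKM) and GLUD1 (184 FPKM) stand at the top and GLS2 (1.80 FPKM) at the bottom.

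Promoter sequences from RefSeq (build GRCh38.p14, 250 bases before to 50 after the RefSeq start) were matched by symbol for 30 of the 32 genes, all but OGDH and GPT2, and 20 of these starts lay within 100 bases of the gene's 5′ end in the deposited table. Shown here are 5 of those 20, from genes that moved in the same direction with both siRNAs. GLUD1 and PC fell and CS, DLAT and DLD rose, as described below. Capitals mark matches to the GC box, GGGCGG on either strand.
GLUD1, chr10:87094794-87095093, minus strand: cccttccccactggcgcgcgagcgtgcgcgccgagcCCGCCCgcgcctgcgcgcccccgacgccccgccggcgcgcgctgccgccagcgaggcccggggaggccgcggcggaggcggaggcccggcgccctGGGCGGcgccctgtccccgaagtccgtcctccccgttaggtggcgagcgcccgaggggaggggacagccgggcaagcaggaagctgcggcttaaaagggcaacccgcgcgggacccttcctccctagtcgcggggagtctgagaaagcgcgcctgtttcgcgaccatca
PC, chr11:66958334-66958633, minus strand: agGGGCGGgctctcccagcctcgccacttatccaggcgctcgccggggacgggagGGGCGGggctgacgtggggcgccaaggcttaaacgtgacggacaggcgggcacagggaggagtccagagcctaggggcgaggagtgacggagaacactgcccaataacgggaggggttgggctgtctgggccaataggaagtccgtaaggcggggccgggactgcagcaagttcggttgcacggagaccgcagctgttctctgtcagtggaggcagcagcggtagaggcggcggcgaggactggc
CS, chr12:56300281-56300580, minus strand: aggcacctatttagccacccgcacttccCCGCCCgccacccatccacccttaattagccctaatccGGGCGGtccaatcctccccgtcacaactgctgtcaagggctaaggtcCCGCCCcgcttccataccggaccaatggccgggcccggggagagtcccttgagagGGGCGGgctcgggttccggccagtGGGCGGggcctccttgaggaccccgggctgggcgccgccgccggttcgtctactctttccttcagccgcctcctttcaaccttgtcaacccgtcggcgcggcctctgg
DLAT, chr11:112025158-112025457, plus strand: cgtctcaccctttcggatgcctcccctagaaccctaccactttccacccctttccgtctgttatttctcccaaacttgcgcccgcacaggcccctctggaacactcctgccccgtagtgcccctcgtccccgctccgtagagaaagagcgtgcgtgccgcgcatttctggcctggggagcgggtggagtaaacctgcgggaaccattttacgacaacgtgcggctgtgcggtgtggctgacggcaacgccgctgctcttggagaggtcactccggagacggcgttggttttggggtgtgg
DLD, chr7:107890857-107891156, plus strand: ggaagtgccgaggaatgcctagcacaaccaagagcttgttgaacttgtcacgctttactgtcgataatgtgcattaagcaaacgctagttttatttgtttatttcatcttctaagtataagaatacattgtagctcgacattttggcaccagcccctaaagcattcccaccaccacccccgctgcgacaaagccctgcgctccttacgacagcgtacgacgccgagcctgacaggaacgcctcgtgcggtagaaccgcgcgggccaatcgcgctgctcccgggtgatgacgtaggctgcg

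The GC box was in 21 of the 30 windows (70.0%) and in 44.6% of 27305 promoters of the same length. The 30 windows were also richer in G and C, with a median of 68.0% against 58.3% for all promoters. GC boxes were in 4 of the 6 genes that rose with both siRNAs and in 3 of the 4 that fell with both. The ETS motif CCGGAAGT was in the IDH3B, DLST and MDH2 windows (4.44% of all promoters), the E-box CACGTG in those of ME3 and PDHB (7.43%), and TGATGCAA, a motif of ATF4 and CEBP factors, in that of GOT1 (0.923%). The NRF1 motif (1.36% of all promoters) and TCAAGGTCA (ERR factors, 0.359%) matched none of the 30. Both strands were searched, and no motif searched contains another.

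Log2 fold changes below are given ± SE. Each adjusted p is from edgeR (quasi-likelihood F test, Benjamini-Hochberg over all tested genes), and a gene is called where that p is under 0.05. With siRNA 1, 11 of the 32 genes rose and 4 fell, beside 21.2% of all tested genes rising and 20.5% falling (41.7% called either way). With siRNA 2, 11 rose and 11 fell, beside 24.4% and 24.9% of all tested genes (49.3% either way). In the same direction with both siRNAs, 6 genes rose (13.2% of all tested genes did so) and 4 fell (12.6%), 10 in all (25.9%). Those that rose were CS, DLAT, DLD, FH, GOT2 and IDH3A, and those that fell were GLUD1, IDH2, PC and ACO1. ME2 was the one gene called in opposite directions (3.24% of all tested genes), and DLST, D2HGDH, MPC1, PDHX, SUCLA2 and SUCLG1 were called with neither siRNA (38.1%). The median log2 fold change of the 32 was 0.10 with siRNA 1 and 0.03 with siRNA 2, beside 0.01 and 0.02 over all tested genes. Regardless of sign, their median change was 0.26 and 0.34, beside 0.33 and 0.39 over all tested genes, so it was not larger than the background. Both comparisons share the control libraries. With no filter on low values, 7 of the 10 were called with both siRNAs, since ACO1, IDH3A and FH each lost the call with siRNA 1 (adjusted p = 0.0987, 0.0532 and 0.0621), IDH3A lost that with siRNA 2 as well (0.0768), and OGDH (0.0674) and PDHA1 (0.223) lost their single calls.

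**Figure D2:**
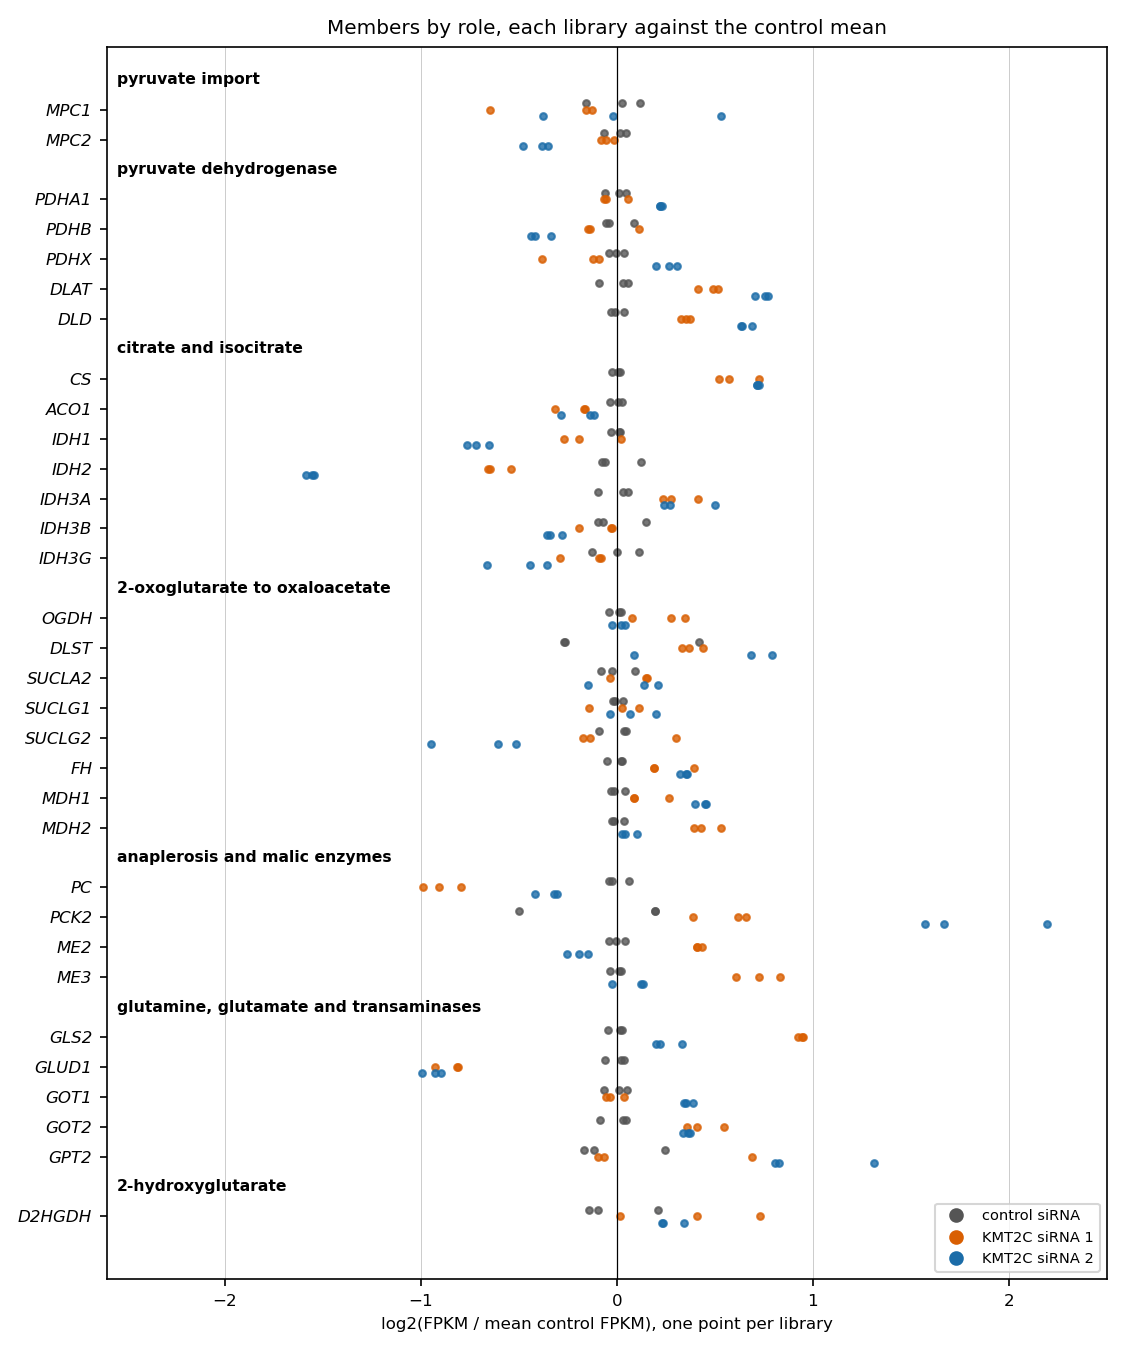
Each library's level as log2 of its FPKM over the control mean, for the 32 genes ordered by role, with 1 point per library (gray control, orange siRNA 1, blue siRNA 2). IDH2, GLUD1 and PC lie to the left with both siRNAs, CS, DLAT and DLD to the right with both, and ME2 to the right with siRNA 1 and to the left with siRNA 2.

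Pyruvate crosses the inner mitochondrial membrane through a carrier of MPC1 and MPC2. MPC2 (GRCh38 chromosome 1, 167916675 to 167937072) was at 90.2, 88.4 and 83.4 FPKM in control, 86.5, 84.1 and 82.5 with siRNA 1, and 62.7, 68.4 and 67.0 with siRNA 2. Its siRNA 2 libraries were all below the others, while siRNA 1 overlapped control. MPC2 fell by 0.46 ± 0.06 with siRNA 2 (adjusted p = 1.83e-04) and did not pass with siRNA 1, at -0.07 ± 0.06 (adjusted p = 0.319). The siRNAs differed by 0.39 ± 0.06 (adjusted p = 7.55e-04). Exons of MPC2 overlap those of DCAF6 on the other strand over 22.5% of their length, and DCAF6 was at 12.5 FPKM in control. MPC1 was uneven with siRNA 2, at 10.2, 5.41 and 6.93 FPKM against 6.31 to 7.62 in control, and was called in no comparison.

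The pyruvate dehydrogenase complex joins an E1 enzyme of PDHA1 and PDHB, the E2 acetyltransferase DLAT, the E3-binding protein PDHX and the E3 dihydrolipoamide dehydrogenase DLD. DLAT and DLD rose with both siRNAs, and more with siRNA 2. DLAT (chromosome 11, 112025408 to 112064404) was at 29.9, 26.9 and 29.3 FPKM in control, 38.3, 40.3 and 41.0 with siRNA 1, and 46.7, 48.5 and 49.0 with siRNA 2. The 3 groups did not overlap. Its log2 fold change was 0.45 ± 0.05 (adjusted p = 3.21e-04) and 0.69 ± 0.05 (adjusted p = 1.63e-05), with a difference between siRNA 1 and siRNA 2 of -0.24 ± 0.05 (adjusted p = 0.00826). DLD (chromosome 7, 107891162 to 107919655), which also serves the 2-oxoglutarate and branched-chain dehydrogenases, was at 38.6, 39.9 and 38.0 FPKM in control, 50.4, 49.6 and 48.8 with siRNA 1, and 62.7, 60.1 and 60.5 with siRNA 2. It too had 3 separate groups, with rises of 0.33 ± 0.05 (adjusted p = 0.00101) and 0.60 ± 0.05 (adjusted p = 2.17e-05) and a difference of -0.27 ± 0.05 (adjusted p = 0.00292).

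None of the other subunits of the complex was called as rising with both siRNAs, as DLAT and DLD were. PDHB, the beta subunit of E1, was at 16.9, 18.7 and 17.1 FPKM in control, 19.1, 15.9 and 16.0 with siRNA 1, and 13.0, 14.0 and 13.2 with siRNA 2. It fell by 0.45 ± 0.09 with siRNA 2 (adjusted p = 0.00322), where its libraries lay below all others, and had -0.07 ± 0.09 with siRNA 1 (adjusted p = 0.549), a difference of 0.38 ± 0.09 (adjusted p = 0.0107). PDHA1, the alpha subunit and the target of the kinases that switch the complex off, was at 28.3, 30.4 and 29.6 FPKM in control, 30.6, 28.4 and 28.2 with siRNA 1, and 34.3, 34.3 and 34.6 with siRNA 2. Its libraries were highest with siRNA 2, but the change was small. The rise of 0.17 ± 0.06 with siRNA 2 had an adjusted p of 0.0495, which went to between 0.0551 and 0.160 when any library but siRNA 1 replicate 1 was left out, and was 0.0578 with RLE size factors and 0.0534 with DESeq2. The difference between the siRNAs, -0.21 ± 0.06 (adjusted p = 0.0248), was lost, with adjusted p of 0.0601 to 0.0771, without siRNA 1 replicate 2 or 3 or any of the siRNA 2 libraries.

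PDHX, which holds E3 to the core, was at 16.0, 16.5 and 15.6 FPKM in control, 12.3, 14.8 and 15.1 with siRNA 1, and 19.3, 19.8 and 18.5 with siRNA 2. The siRNA 1 libraries lay below control and the siRNA 2 libraries above it. Neither change passed the test, at -0.22 ± 0.08 (adjusted p = 0.0526) and 0.20 ± 0.08 (adjusted p = 0.0585), while the difference between the siRNAs did, at -0.42 ± 0.08 (adjusted p = 0.00301). The first was called without siRNA 1 replicate 3 (adjusted p = 0.0357), with RLE size factors (0.0442) and with DESeq2 (0.0325). The second was called without siRNA 1 replicate 1 (adjusted p = 0.0110), under quantile normalization (0.00974), with limma on log2(FPKM + 1) or log2(FPKM + 0.1) (0.0278 and 0.0295) and when only the groups compared were fitted (0.0198). As a description chosen after the values were seen, the FPKM of DLAT over that of PDHB was 1.64 ± 0.175 in control, 2.37 ± 0.309 with siRNA 1 and 3.59 ± 0.129 with siRNA 2.

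CS, citrate synthase, joins acetyl-CoA to oxaloacetate in the first step of the cycle. CS (chromosome 12, 56271699 to 56300391) was at 54.8, 55.8 and 56.3 FPKM in control, 80.0, 82.7 and 91.9 with siRNA 1, and 92.0, 91.3 and 91.2 with siRNA 2. All 6 knockdown libraries lay above all control libraries. It rose by 0.58 ± 0.06 (adjusted p = 1.36e-04) and 0.66 ± 0.06 (adjusted p = 3.33e-05), and their gap did not pass the test, at -0.08 ± 0.06 (adjusted p = 0.336), except under quantile normalization, at -0.16 (adjusted p = 0.0456). ACO1, the cytosolic aconitase that also acts as an iron regulatory protein, was at 6.53, 6.26 and 6.42 FPKM in control, 5.70, 5.73 and 5.15 with siRNA 1, and 5.82, 5.26 and 5.90 with siRNA 2. Its control libraries were the highest, by a narrow margin. The falls, by 0.24 ± 0.07 (adjusted p = 0.0309) and 0.23 ± 0.07 (adjusted p = 0.0278), were lost without any 1 of the control libraries. They were also lost without siRNA 1 replicate 2 or 3 for siRNA 1 (adjusted p of 0.0511 to 0.0817 over all 5 omissions) and without siRNA 2 replicate 2 for siRNA 2 (0.0559 to 0.0996 over all 4). Under quantile normalization the falls were 0.19 and 0.13 and neither passed (adjusted p = 0.0677 and 0.171), and limma on log2(FPKM + 1) lost the second (adjusted p = 0.0747).

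Isocitrate is oxidised by NADP-dependent enzymes, IDH1 in the cytosol and IDH2 in mitochondria, and by the NAD-dependent IDH3, whose catalytic alpha subunit works with IDH3B and IDH3G. IDH2 had the largest fall of the 32 genes with siRNA 2. IDH2 (chromosome 15, 90083045 to 90102468) was at 256, 253 and 291 FPKM in control, 183, 171 and 169 with siRNA 1, and 91.0, 89.0 and 91.6 with siRNA 2. The 3 groups were separate, and 65.4% of the control level was left with siRNA 1 and 33.9% with siRNA 2. It fell by 0.64 ± 0.07 (adjusted p = 2.47e-04) and by 1.61 ± 0.07 (adjusted p = 1.04e-06), and the effects differed by 0.98 ± 0.07 (adjusted p = 2.19e-05). IDH1 (chromosome 2, 208236229 to 208266074) was at 56.9, 58.4 and 58.7 FPKM in control, 58.8, 48.0 and 50.7 with siRNA 1, and 35.2, 36.9 and 34.1 with siRNA 2. The siRNA 1 libraries reached into the control range and the siRNA 2 libraries did not. IDH1 fell by 0.77 ± 0.08 with siRNA 2 (adjusted p = 1.03e-04). With siRNA 1 it had -0.17 ± 0.08 (adjusted p = 0.146), which was called without siRNA 1 replicate 1 (adjusted p = 0.00677). The difference was 0.60 ± 0.08 (adjusted p = 6.44e-04).

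The subunits of IDH3 were called in different directions with siRNA 2, and only IDH3A was called with siRNA 1. IDH3A was at 15.5, 15.8 and 14.2 FPKM in control, 18.4, 20.2 and 17.9 with siRNA 1, and 18.4, 17.9 and 21.5 with siRNA 2, and no knockdown library overlapped control. ACSBG1, on the other strand, shares 38.2% of its exon length but was at 0.264 FPKM in control. IDH3A rose by 0.29 ± 0.09 with each siRNA (adjusted p = 0.0269 and 0.0217). Both calls were lost without control replicate 1 or 3, and also without siRNA 1 replicate 2 for siRNA 1 (adjusted p of 0.0643 to 0.0854 over the 3 omissions) and without siRNA 2 replicate 3 for siRNA 2 (0.0534 to 0.0717). IDH3B was at 16.8, 16.5 and 19.6 FPKM in control, 17.3, 15.4 and 17.3 with siRNA 1, and 13.9, 13.8 and 14.6 with siRNA 2. IDH3G was at 13.0, 14.2 and 15.3 FPKM in control, 13.4, 11.6 and 13.3 with siRNA 1, and 11.1, 8.96 and 10.5 with siRNA 2. In both, the siRNA 2 libraries were below all others while siRNA 1 overlapped control. With siRNA 2, IDH3B fell by 0.38 ± 0.09 (adjusted p = 0.00798) and IDH3G by 0.53 ± 0.11 (adjusted p = 0.00445), against -0.11 ± 0.09 and -0.17 ± 0.11 with siRNA 1, which did not pass. Their differences between the siRNAs, 0.27 ± 0.09 (adjusted p = 0.0417) and 0.36 ± 0.11 (adjusted p = 0.0345), were each lost without control replicate 2, siRNA 1 replicate 1 or 3, or siRNA 2 replicate 2 or 3, and the first also without siRNA 2 replicate 1 (adjusted p of 0.0522 to 0.115 for IDH3B and 0.0516 to 0.110 for IDH3G). Both were also lost under quantile normalization (adjusted p = 0.0741 and 0.0512). IDH3G shares 10.2% of its exon length with SSR4 on the other strand, which was at 14.5 FPKM in control.

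From 2-oxoglutarate to oxaloacetate the cycle runs through the 2-oxoglutarate dehydrogenase complex (OGDH, DLST and DLD), succinyl-CoA ligase, succinate dehydrogenase, fumarase and malate dehydrogenase. FH, fumarase (chromosome 1, 241497603 to 241519755), was at 46.3, 48.7 and 48.5 FPKM in control, 62.9, 54.5 and 54.6 with siRNA 1, and 61.0, 61.3 and 59.8 with siRNA 2. All control libraries were below all knockdown libraries. It rose by 0.24 ± 0.07 with siRNA 1 (adjusted p = 0.0311), and by 0.29 ± 0.07 with siRNA 2 (adjusted p = 0.0111). The first call was lost without any 1 of the control libraries (adjusted p of 0.0541 to 0.101) and when only the groups compared were fitted (0.0730), and the rise was 0.16 without siRNA 1 replicate 1, the highest of its group. MDH2 (chromosome 7, 76048051 to 76067506) was at 106, 107 and 111 FPKM in control, 156, 145 and 142 with siRNA 1, and 110, 111 and 116 with siRNA 2. Its siRNA 1 libraries stood above the rest and siRNA 2 overlapped control. It rose by 0.43 ± 0.06 with siRNA 1 (adjusted p = 6.64e-04) and had 0.00 ± 0.06 with siRNA 2 (adjusted p = 0.980), a difference of 0.43 ± 0.06 (adjusted p = 6.76e-04). Under quantile normalization the value with siRNA 2 was 0.16 and passed (adjusted p = 0.0428), and its sign changed in 8 of 18 alternatives.

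MDH1, the cytosolic malate dehydrogenase, showed the reverse order of the siRNAs. It was at 19.1, 18.3 and 18.2 FPKM in control, 22.3, 19.7 and 19.7 with siRNA 1, and 25.4, 24.4 and 25.3 with siRNA 2. It rose by 0.38 ± 0.07 with siRNA 2 (adjusted p = 0.00166) and had 0.13 ± 0.07 with siRNA 1 (adjusted p = 0.167), although the siRNA 1 libraries lay just above control. The difference, -0.25 ± 0.07 (adjusted p = 0.0167), was lost without siRNA 1 replicate 2 or 3 or siRNA 2 replicate 1 or 3 (adjusted p of 0.0521 to 0.0562). As a description chosen after the values were seen, MDH2 over MDH1 in FPKM was 5.83 ± 0.274 in control, 7.20 ± 0.195 with siRNA 1 and 4.49 ± 0.136 with siRNA 2.

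The dehydrogenase and ligase subunits gave 1 rise and 1 fall. OGDH, the E1 enzyme of the 2-oxoglutarate complex, was at 30.2, 29.2 and 30.4 FPKM in control, 31.6, 36.3 and 38.1 with siRNA 1, and 30.4, 30.8 and 29.5 with siRNA 2. The siRNA 1 libraries were the highest. It rose by 0.21 ± 0.07 with siRNA 1 (adjusted p = 0.0333), lost when any control library, siRNA 1 replicate 2 or 3, or siRNA 2 replicate 1 or 2 was left out (adjusted p of 0.0515 to 0.107), and when only the groups compared were fitted (0.0826). With siRNA 2 it had -0.04 ± 0.07. The difference of 0.25 ± 0.07 (adjusted p = 0.0165) was lost without siRNA 2 replicate 3 (adjusted p = 0.0563). SUCLG2, the beta subunit of GTP-forming succinyl-CoA ligase, was at 26.1, 25.9 and 23.8 FPKM in control, 31.1, 23.0 and 22.4 with siRNA 1, and 17.7, 16.6 and 13.1 with siRNA 2, the lowest of the 9 libraries. It fell by 0.73 ± 0.15 with siRNA 2 (adjusted p = 0.00408), against -0.01 ± 0.15 with siRNA 1, a difference of 0.72 ± 0.15 (adjusted p = 0.00592). SUCLA2 and SUCLG1, its ADP-forming counterpart and their common alpha subunit, had values from -0.02 to 0.07 against control. Neither passed in any comparison. DLST, the E2 enzyme of the 2-oxoglutarate complex, was at 28.0, 17.4 and 17.4 FPKM in control, 28.4, 27.0 and 26.3 with siRNA 1, and 22.2, 36.3 and 33.6 with siRNA 2. Control replicate 1 stood with the knockdown libraries. Its values of 0.36 ± 0.22 (adjusted p = 0.217) and 0.50 ± 0.22 (adjusted p = 0.0862) did not pass, and without that library they did (adjusted p = 0.0386 and 0.0139), as did siRNA 2 without siRNA 2 replicate 1 (adjusted p = 0.0215).

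**Figure D3:**
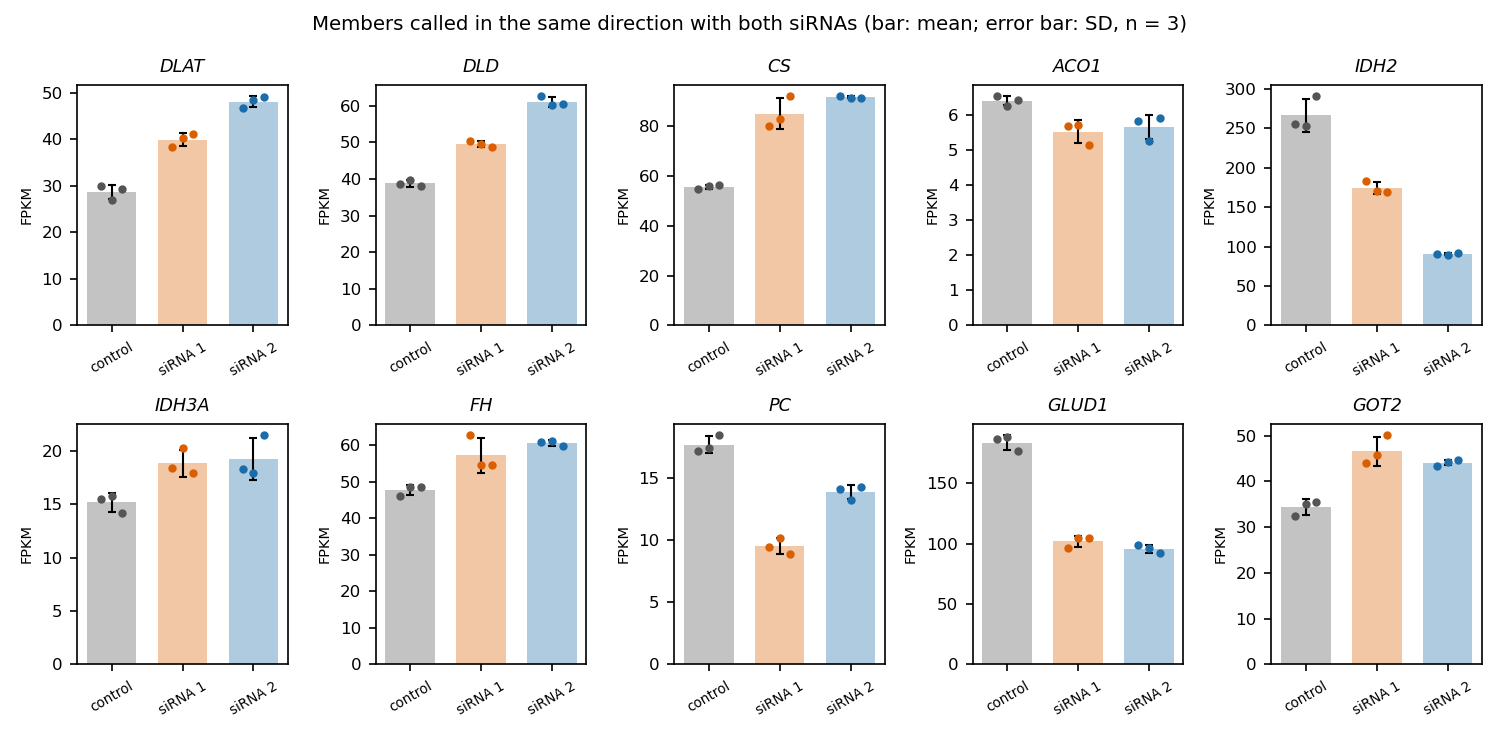
FPKM of the 10 genes called in the same direction with both siRNAs, with 1 point per library, the mean as a bar and the SD as an error bar (n = 3). DLAT, DLD, CS, IDH3A, FH and GOT2 are higher in all knockdown libraries than in control, and ACO1, IDH2, PC and GLUD1 are lower.

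Genes that fill or drain the cycle at pyruvate, phosphoenolpyruvate and malate moved in different directions. PC, pyruvate carboxylase (chromosome 11, 66848417 to 66958386), was at 17.2, 17.4 and 18.5 FPKM in control, 9.43, 10.2 and 8.91 with siRNA 1, and 14.2, 13.2 and 14.3 with siRNA 2. The 3 groups were separate, with 53.8% of the control level left with siRNA 1 and 78.6% with siRNA 2. It fell by 0.92 ± 0.07 (adjusted p = 3.27e-05) and 0.40 ± 0.07 (adjusted p = 0.00148), a difference of -0.52 ± 0.07 (adjusted p = 5.48e-04). LRFN4, at 15.1 FPKM in control, overlaps 10.5% of the exon length of PC on the other strand. PCK2, the mitochondrial phosphoenolpyruvate carboxykinase (chromosome 14, 24094053 to 24104125), was at 4.25, 4.25 and 2.63 FPKM in control, 5.86, 5.70 and 4.85 with siRNA 1, and 11.8, 17.0 and 11.0 with siRNA 2. Its groups were separate too, and the rise with siRNA 2, 1.78 ± 0.22 (adjusted p = 2.23e-04), was the largest of the 32 genes. With siRNA 1 it had 0.54 ± 0.22 (adjusted p = 0.0780), which passed with DESeq2 (0.0442) and was 0.35 without control replicate 3, the lowest library (adjusted p = 0.193). The difference was -1.24 ± 0.22 (adjusted p = 0.00226).

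The malic enzymes convert malate to pyruvate. ME2, the mitochondrial NAD-dependent form (chromosome 18, 50879080 to 50947875), was at 4.57, 4.41 and 4.31 FPKM in control, 5.99, 5.88 and 5.88 with siRNA 1, and 4.01, 3.71 and 3.88 with siRNA 2. Control lay between the siRNAs, with no overlap. ME2 rose by 0.39 ± 0.05 with siRNA 1 (adjusted p = 6.30e-04) and fell by 0.25 ± 0.05 with siRNA 2 (adjusted p = 0.00479), the latter at -0.14 and lost under quantile normalization (adjusted p = 0.0567). The difference was 0.64 ± 0.05 (adjusted p = 4.10e-05). ME3, the mitochondrial NADP-dependent form (chromosome 11, 86441108 to 86672636), was at 3.59, 3.73 and 3.71 FPKM in control, 5.62, 6.54 and 6.08 with siRNA 1, and 4.02, 3.62 and 4.04 with siRNA 2. Only siRNA 1 stood apart, with a rise of 0.69 ± 0.09 (adjusted p = 3.67e-04) against 0.03 ± 0.09 and a difference of 0.67 ± 0.09 (adjusted p = 4.15e-04).

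Glutamine is split to glutamate by glutaminases, and glutamate becomes 2-oxoglutarate through GLUD1 or the transaminases. GLUD1 (chromosome 10, 87050202 to 87094843) was at 186, 188 and 176 FPKM in control, 96.5, 105 and 105 with siRNA 1, and 98.7, 96.7 and 92.4 with siRNA 2. All knockdown libraries lay below control, with 55.5% and 52.2% of its level left. It fell by 0.87 ± 0.05 (adjusted p = 1.16e-05) and 0.99 ± 0.05 (adjusted p = 2.12e-06). The difference between the siRNAs, 0.12 ± 0.05 (adjusted p = 0.112), was called only without siRNA 1 replicate 1 (adjusted p = 0.0399). GLUD2 is a near-identical intronless copy, at 1.73 ± 0.370 FPKM in control, and 5 annotated GLUD1 pseudogenes summed to 1.75 FPKM. How the counting shared reads among these copies is not given in the sources used here.

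GLS2 was at 1.75, 1.83 and 1.84 FPKM in control, 3.49, 3.47 and 3.43 with siRNA 1, and 2.08, 2.10 and 2.27 with siRNA 2. Every siRNA 1 library was above every other library, and siRNA 2 lay just above control. It rose by 0.91 ± 0.09 with siRNA 1 (adjusted p = 1.07e-04) and had 0.19 ± 0.09 with siRNA 2 (adjusted p = 0.101), a difference of 0.71 ± 0.09 (adjusted p = 3.17e-04). The value with siRNA 2 passed with limma on log2(FPKM + 1) or log2(FPKM + 0.1) (adjusted p = 0.0365 and 0.0292). SPRYD4 overlaps 77.1% of the exon length of GLS2 on the other strand and was at 2.57 FPKM in control, so without a statement of stranded counting the reads of the pair cannot be told apart.

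The aspartate transaminases link glutamate to oxaloacetate, and the alanine transaminase GPT2 links it to pyruvate. GOT2, the mitochondrial aspartate transaminase (chromosome 16, 58707131 to 58734342), was at 32.5, 35.2 and 35.5 FPKM in control, 44.1, 45.7 and 50.2 with siRNA 1, and 43.5, 44.2 and 44.6 with siRNA 2. Knockdown libraries were all above control. It rose by 0.41 ± 0.07 (adjusted p = 0.00143) and 0.30 ± 0.07 (adjusted p = 0.00536), with a difference of 0.11 ± 0.07 that did not pass (adjusted p = 0.224). GOT1, the cytosolic form, was at 50.2, 51.8 and 47.6 FPKM in control, 51.2, 48.7 and 48.1 with siRNA 1, and 63.7, 65.2 and 63.3 with siRNA 2. It was higher with siRNA 2 alone, rising by 0.31 ± 0.06 (adjusted p = 0.00199) against -0.04 ± 0.06 with siRNA 1, a difference of -0.35 ± 0.06 (adjusted p = 0.00148). GPT2, mitochondrial alanine transaminase, was at 3.76, 3.63 and 4.84 FPKM in control, 3.82, 6.58 and 3.89 with siRNA 1, and 7.13, 7.23 and 10.1 with siRNA 2. The siRNA 2 libraries were the highest and 1 siRNA 1 library came close to them. GPT2 rose by 0.94 ± 0.24 with siRNA 2 (adjusted p = 0.0104), against 0.20 ± 0.24 with siRNA 1. The difference of -0.75 ± 0.24 (adjusted p = 0.0354) was lost without siRNA 1 replicate 1 or 3 or siRNA 2 replicate 3 (adjusted p of 0.105 to 0.117), and when only the groups compared were fitted (0.0548).

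D2HGDH, which oxidises D-2-hydroxyglutarate to 2-oxoglutarate, was at 1.86, 2.30 and 1.80 FPKM in control, 3.29, 2.64 and 2.01 with siRNA 1, and 2.33, 2.52 and 2.34 with siRNA 2. Its siRNA 1 libraries spread widely. It passed in no comparison, although without siRNA 1 replicate 3 the value for siRNA 1 did (adjusted p = 0.0258, against 0.122 with all libraries).

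**Figure D4:**
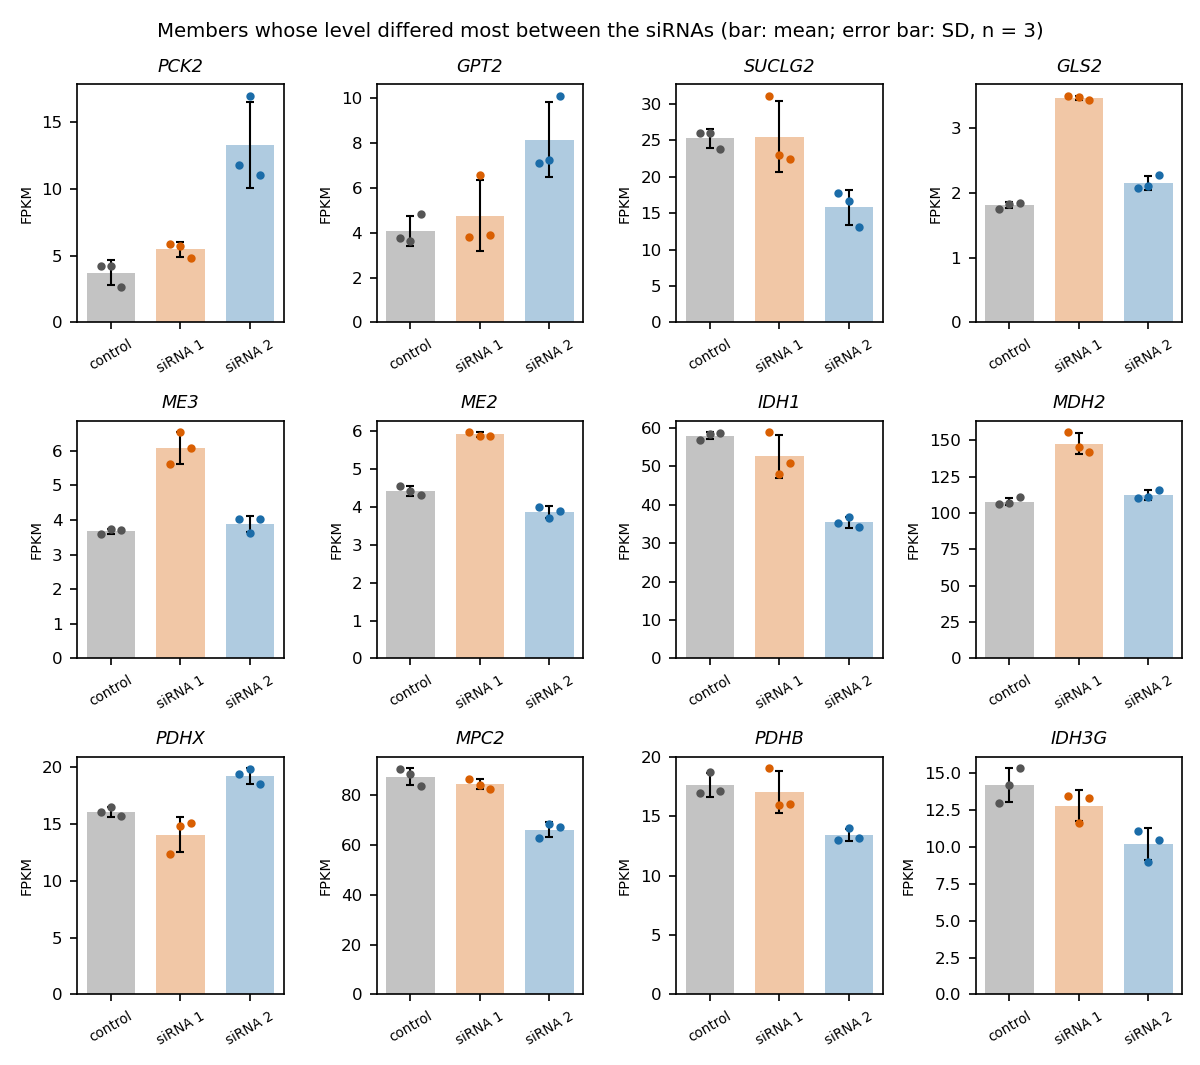
FPKM of the 12 genes with the largest differences between the siRNAs among those called in that comparison and not in the same direction with both, with 1 point per library, the mean as a bar and the SD as an error bar (n = 3). PCK2 and GPT2 are highest with siRNA 2, GLS2, ME3, ME2 and MDH2 with siRNA 1, and SUCLG2, IDH1, MPC2, PDHB and IDH3G are lowest with siRNA 2.

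Compared directly, the siRNAs gave different levels of 21 of the 32 genes, beside 39.5% of all tested genes. Of these, 12 were higher with siRNA 1 (20.6% of all tested genes) and 9 were higher with siRNA 2 (18.9%). Regardless of sign, the median log2 difference of the 32 was 0.310, beside 0.308 over all tested genes. KMT2C itself did not pass in this comparison, at 0.17 ± 0.12 (adjusted p = 0.309). Called with siRNA 2 and not with siRNA 1 were 11 genes (20.2% of all tested genes), namely GOT1, GPT2, IDH1, IDH3B, IDH3G, MDH1, MPC2, PCK2, PDHA1, PDHB and SUCLG2, and for all 11 the difference passed its own test. The 4 genes called with siRNA 1 and not with siRNA 2 (12.6% of all tested genes), GLS2, MDH2, ME3 and OGDH, also passed that test. Picking genes called with siRNA 1 or siRNA 2 alone favours such a difference. The share of all genes picked in this way that passed that test was not counted. For PCK2, IDH1, GLS2 and MDH2 the siRNA without a call gained one under the alternatives given above. The differences of IDH3B, MDH1, GPT2, PDHA1 and DLAT were lost with no filter on low values (adjusted p of 0.0537, 0.0901, 0.0728, 0.146 and 0.0637). Among the 10 genes that moved the same way with both siRNAs, IDH2, PC, DLAT and DLD differed in size between them. The matching share over all tested genes was not counted either.

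**Figure D5:**
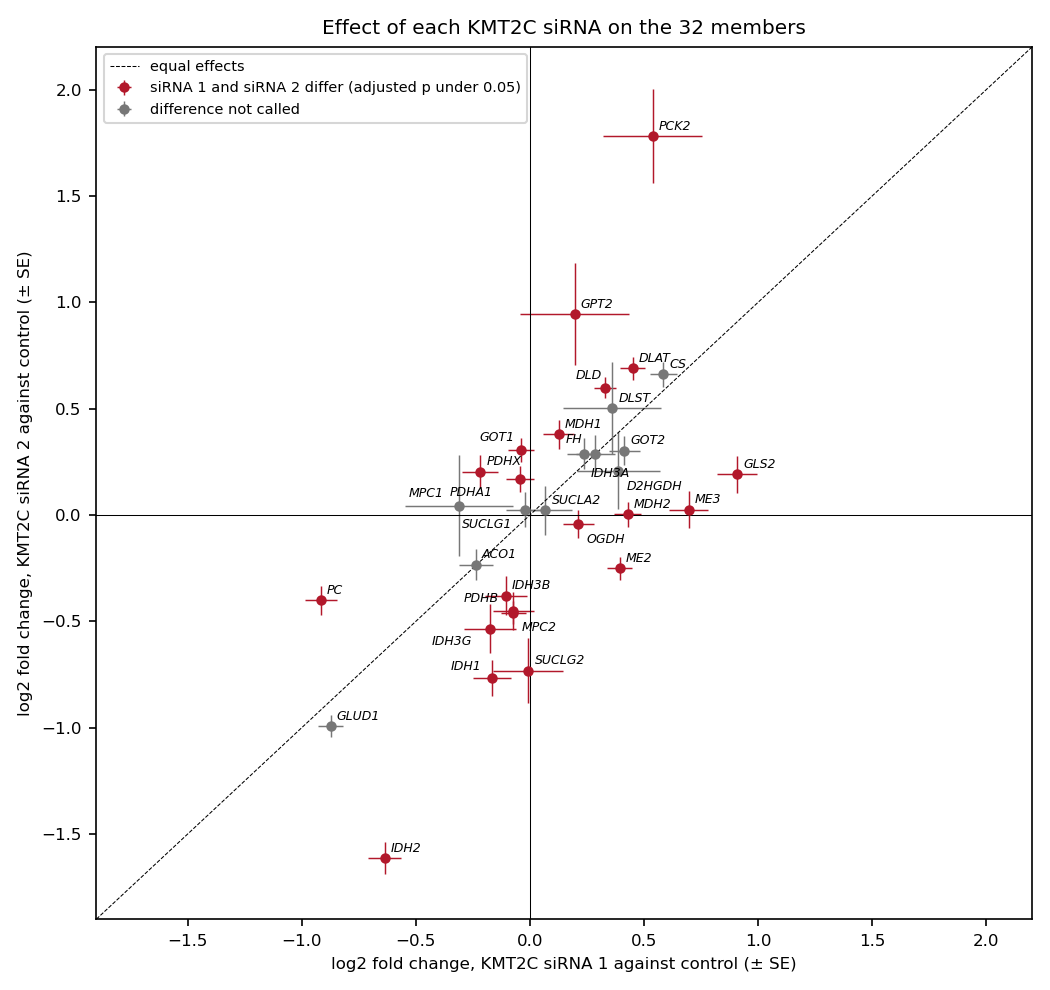
Log2 fold change of each gene with siRNA 1 (horizontal) and siRNA 2 (vertical) against control, with SE as error bars, and red where the siRNAs differed (adjusted p under 0.05). Points off the dashed line of equal effects include PCK2 (0.54 and 1.78), IDH2 (-0.64 and -1.61), PC (-0.92 and -0.40) and ME2 (0.39 and -0.25), while CS and GLUD1 lie close to it, and both axes share the control libraries.

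The summed FPKM of the 32 genes was 1234 ± 11.7 in control, 1175 ± 22.8 with siRNA 1 and 1064 ± 7.04 with siRNA 2. The part of IDH2 and GLUD1 in it went from 36.5% ± 0.852 to 23.5% ± 0.228 and 17.5% ± 0.387. The other 30 genes together summed to 784 ± 3.15 FPKM in control, 898 ± 19.9 with siRNA 1 and 877 ± 9.80 with siRNA 2. This split was chosen after the values were seen and is given as a description.

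Of 44 other genes of the same pathways (further cycle enzymes, pyruvate dehydrogenase kinases and phosphatases, lipoate synthesis, glutamine enzymes and carriers), 37 were tested. With siRNA 1, 8 rose (21.6%, beside 21.2% of all tested genes) and 4 fell (10.8%, beside 20.5%). With siRNA 2, 12 rose (32.4%, beside 24.4%) and 9 fell (24.3%, beside 24.9%). Their median log2 fold changes were 0.12 and 0.00, beside 0.01 and 0.02 over all tested genes. In the same direction with both siRNAs 5 rose (13.5%, beside 13.2% of all tested genes) and 2 fell (5.41%, beside 12.6%), so the rising share was near the background. SLC1A5, a plasma membrane glutamine carrier, was at 24.1 ± 2.22 FPKM in control, 50.5 ± 1.41 with siRNA 1 and 36.5 ± 4.36 with siRNA 2, and rose by 1.04 ± 0.10 and 0.54 ± 0.10. SLC25A12, a mitochondrial aspartate-glutamate carrier, rose by 0.45 ± 0.10 and 1.05 ± 0.10, and ME1, the cytosolic malic enzyme, by 2.02 ± 0.26 and 1.16 ± 0.25 from 0.383 ± 0.0960 FPKM, a control level under the filter, so it could be tested only because it was higher with an siRNA. SDHB, the iron-sulfur subunit of succinate dehydrogenase, rose by 0.52 ± 0.12 and 0.82 ± 0.12, and SDHAF3, an assembly factor of that enzyme, by 0.83 ± 0.09 and 0.70 ± 0.09. PDP1, a phosphatase that switches pyruvate dehydrogenase on, fell by 0.78 ± 0.21 and 1.43 ± 0.21, and PDK2, a kinase that switches it off, by 0.39 ± 0.10 and 0.32 ± 0.10. ASNS, asparagine synthetase, chosen after its values were seen, had a pattern across groups like that of PCK2, at 15.3, 8.94 and 9.31 FPKM in control, 17.3, 13.5 and 16.0 with siRNA 1, and 53.7, 35.5 and 33.3 with siRNA 2. It rose by 1.82 ± 0.25 with siRNA 2 (adjusted p = 3.78e-04) and had 0.46 ± 0.24 with siRNA 1 (adjusted p = 0.162). A transcript of the same strand, AC079781.5, shares 44.6% of its exon length. Untested for low levels were OGDHL, LIAS, LIPT1, PDK4, GPT, PCK1 and ADHFE1.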

How the data were processed

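RNA sequencing of 9 VCaP libraries was analysed from a single table. Its expected counts, deposited by the authors, were not normalized and were rounded to whole numbers when read. Low values pile up at 4 and 8 (11286 and 5914 values, against 4677 at 3), so about 4 counts appear to stand for 1 fragment. Members had at least 507 counts in every library. FPKM values, also deposited by the authors, list most genes without counts at 0.0001. The tools and builds that the submitters' processing notes name, with no role, are Bowtie 0.12.2, mm8 and hg38. How reads were counted, with which annotation and with what use of strand is not given in the sources used here. Separate cultures are not stated either, so p-values measure only spread between these libraries, which may be technical. No library pair had identical values. All 32 gene identifiers are in GENCODE 29 on GRCh38, which gave the exon overlaps, 11 with the same start and end as in the deposited table.

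Genes at 1 FPKM or more in at least 3 libraries were tested in edgeR 4.0.16 (R 4.3.3) with TMM factors, a mean per group over all 9 libraries and two-sided quasi-likelihood tests, adjusted by Benjamini-Hochberg at 0.05. The SE is the log2 fold change over the square root of F. FPKM ratios ran above fitted fold changes by a median of 0.02 (siRNA 1) and 0.06 (siRNA 2) on the log2 scale. Alternatives used DESeq2 1.42.0, limma 3.58.1 on log2(FPKM + 1) or log2(FPKM + 0.1), other scalings, no filter, counts divided by 4, only the groups compared, a replicate block and each library left out. Tested on simulated data for siRNA 1 against control (12830 genes, 10 draws pooled), the fit recovered 11.6% of changes of log2 size 0.5, 61.3% of size 1 and 90.5% of size 2, and 5.57% of its calls were false. The 10 draws together held 670, 670 and 660 such changes, while 5349 genes were called in the data for this comparison. The adjusted p depends on how many genes change, so these shares cannot be read as the recovery in the data. All members are named, with each library's value where they were called the same way with both siRNAs or between the siRNAs. Library values of MPC1, DLST and D2HGDH, which that rule does not cover, were added after they were seen. Related genes are named where called the same way with both siRNAs. Members, lists and rules were chosen with earlier results of these data known.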

Additional observations from a re-analysis of the deposited data

Results flagged for a closer look

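The effects of the siRNAs differed by the direct test (edgeR, quasi-likelihood F test, Benjamini-Hochberg over all tested genes) in 21 of the 32 genes, and each is listed here for that reason as the log2 level with siRNA 1 minus that with siRNA 2. Higher with siRNA 1 were IDH2 (0.98), SUCLG2 (0.72), GLS2 (0.71), ME3 (0.67), ME2 (0.64), IDH1 (0.60), MDH2 (0.43), MPC2 (0.39), PDHB (0.38), IDH3G (0.36), IDH3B (0.27) and OGDH (0.25). Higher with siRNA 2 were PCK2 (-1.24), GPT2 (-0.75), PC (-0.52), PDHX (-0.42), GOT1 (-0.35), DLD (-0.27), MDH1 (-0.25), DLAT (-0.24) and PDHA1 (-0.21). Of these, ME2 was called in opposite directions against control. With 3 libraries per group no library was tested as an outlier.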

How the results depend on the processing

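Over 18 alternatives, no called value of the 32 genes changed sign and 43 of 58 calls were kept in every one, while 15 were lost in at least 1 and 11 of 38 uncalled values were gained in at least 1. Numbers of the 32 genes called stayed within 1.5 times of the main count: 11 to 17 for siRNA 1 (main 15), 19 to 23 for siRNA 2 (main 22), 15 to 21 between the siRNAs (main 21) and 7 to 11 in the same direction with both (main 10). Without any filter on low values, 11 calls were lost and none gained. Leaving out 1 library at a time gave 11 to 16, 19 to 23, 15 to 21 and 7 to 11. Over the 18 alternatives, 4511 to 5811 of all tested genes were called for siRNA 1 (main 5349). For siRNA 2 the range was 5508 to 6744 (main 6328), and between the siRNAs 4109 to 5551 (main 5068). In the same direction with both it was 2735 to 3597 (main 3317). Replicate numbers showed no sign of pairing the libraries. Same-numbered libraries of different groups had correlations of -0.04 to 0.07 in their deviations from the group means. Differently numbered libraries had -0.07 to 0.05. With 3 libraries per group, a weak pairing could go unseen. With the replicate number as a block, 12, 21 and 20 of the genes were called in the 3 comparisons and 8 in the same direction with both siRNAs, and 5007, 6070 and 4766 of all tested genes. The block also called PCK2 with siRNA 1 (adjusted p = 0.0216). It lost the calls of ACO1, IDH3A, FH and OGDH with siRNA 1, and of PDHA1 with siRNA 2 and between the siRNAs. Of the 10 genes called in the same direction with both siRNAs, 7 were kept. The cause of lost and gained calls was not tested. Levels rest on summed estimates per gene, and antisense overlaps and near-identical copies could not be separated.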
